A study of Danio rerio with 4 samples.

Results

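The Notch pathway and the *her*, *hes* and *hey* genes were examined in whole zebrafish embryos at sphere stage, a blastula stage at which zygotic transcription is under way. Members were taken by a rule on gene names that uses no measured value, and the choice of this pathway was made with earlier results of these data known. The rule took names that begin with *her* or *hes* and a digit, and names that begin with *hey*. Also taken were the *notch*, *jag1* and *jag2*, *dla* to *dld* and *dll4* names, and those of the fringe enzymes, *mib*, *numb*, *adam10*, presenilin, *rbpj* and *maml*. The rule found 53 genes of the 32468 in the deposited table, and it left out *hesx1*. Wild-type embryos of the AB strain, 2 samples, were compared with 2 samples of MZ*eomesa* embryos, labelled with the *eomesa* allele fh105 and the same strain. MZ*eomesa* embryos come from homozygous mutant parents and so lack maternal as well as zygotic Eomesa, a T-box transcription factor. For some experiments, which it does not name, the study replaced them with embryos of mutant mothers and heterozygous or wild-type fathers. The study calls the sequenced embryos MZ*eomesa*. Poly(A) RNA of whole embryos was sequenced. The deposited table gives 1 FPKM value for each gene and group, in which the 2 samples are combined. FPKM scales fragment counts to transcript length and library size, so levels can be set side by side between genes. No value of a sample is given, so the values below carry no replicate error, no test between the groups could be made, and a difference is described by its size only.

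Notch signalling passes between touching cells. A Delta or Jagged ligand on one cell binds a Notch receptor on its neighbour, the receptor is cut by an ADAM protease and then by the presenilin complex, and the freed inner part joins Rbpj and Mastermind in the nucleus. Many *her*, *hes* and *hey* genes are switched on in this way and encode basic helix-loop-helix repressors, which in the zebrafish are known for holding back neuronal differentiation and for the clock that times somite formation. Several *her* genes are also expressed without Notch input.

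The targeted gene was checked first. *eomesa* had 62.6 FPKM in wild-type embryos against 1.52 FPKM in MZ*eomesa* embryos, 41.2-fold lower. A gene was counted as higher or lower in MZ*eomesa* embryos where its FPKM differed by at least 2-fold, its mean over both groups was at least 1 FPKM and it was above 0 in both. Of the 14921 genes with such values, 5.40% were higher and 3.80% lower, and the median over them of the log2 ratio, mutant over wild-type, was -0.01. Whole embryos hold several cell types, and in such samples fewer cells of a type and less RNA per cell cannot be told apart. Marker genes of these cell types differed between the groups. The 5 enveloping layer markers summed to 286 FPKM in wild-type embryos against 527 FPKM in MZ*eomesa* embryos, and 2 of them, *krt5* and *krt18*, were higher. The authors' program marked the estimate of *krt18* as failed. The 6 ectoderm markers summed to 153 and 285 FPKM, and 3 of them were higher, including *tfap2a* and *foxi1*. The 3 listed yolk syncytial layer markers of 4 summed to 92.6 and 7.73 FPKM. The 5 listed mesendoderm margin markers of 6 summed to 36.6 and 46.1 FPKM, with 2 lower and 0 higher. Of the stage markers, the 3 listed maternal genes of 5 summed to 452 and 306 FPKM. Of these, *buc* was lower, with 96.1 and 42.0 FPKM, while *cldnd*, the highest, stayed within 2-fold with 332 and 246 FPKM. The 5 listed early zygotic genes of 7 summed to 529 and 253 FPKM, a difference set by *blf* with 342 and 31.0 FPKM. Of the others, *vent* had 17.8 and 5.82 FPKM and *vox* 60.5 and 52.2 FPKM. *aplnrb*, with 47.4 and 75.5 FPKM, and *tbx16*, with 61.1 and 88.7 FPKM, went the other way. None of these markers was listed at 0. The part of these differences in the results below was not tested.

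In wild-type embryos 25 of the 53 genes (47.2%) had at least 1 FPKM, against 45.8% of all genes. At this level every step of the pathway was represented by at least 1 gene. In MZ*eomesa* embryos 7 of the 27 genes whose mean reached 1 FPKM were higher by at least 2-fold (25.9%), where all genes gave 5.40%, and 0 were lower, where all genes gave 3.80%. The 7 genes were *dlc*, *her13*, *notch3*, *hey1*, *her3*, *hes6* and *her8a*. They comprised 1 ligand, 1 receptor and 5 genes of the *her*, *hes* and *hey* family. *dlc*, at 0.818 FPKM in wild-type embryos, and *her13*, at 0.396 FPKM, reached the minimum mean only through their MZ*eomesa* values. Their place in the count thus depends on the value that makes them higher. The same rule was applied to all genes. Low values scatter more, so the share was also read by level. Between 1 and 10 FPKM 6 of 14 members were higher, against 8.34% of all genes in that range, and at 10 FPKM or more 1 of 13, against 2.55%. The 6 include *dlc* and *her13*, which entered that range only through their MZ*eomesa* values, so the split by level does not remove this dependence. The median log2 ratio of the 27 genes was 0.04, and 15 of them had a ratio above 0. The difference between the groups therefore lay in some members and not across the pathway.

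**Figure D1:**
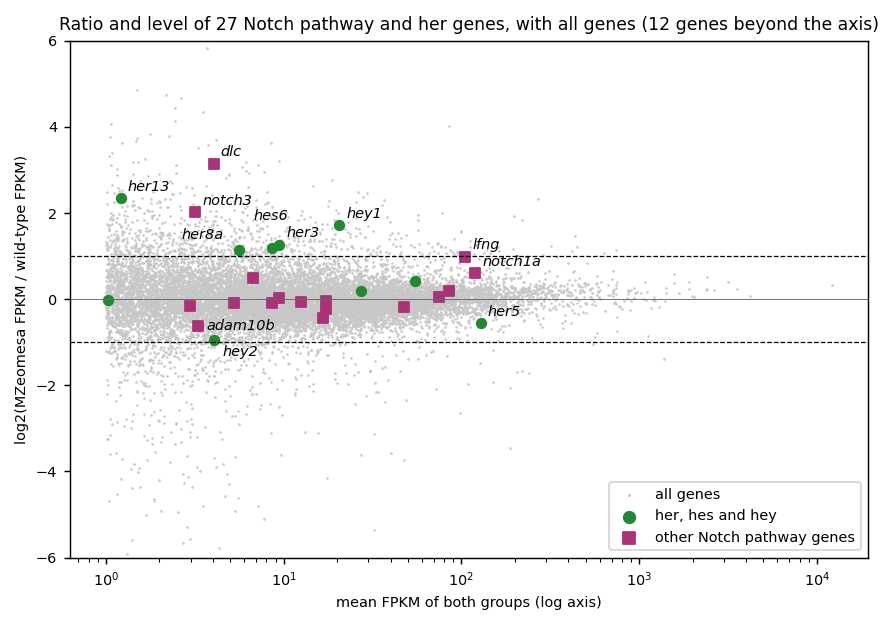
Each point is a gene whose mean was 1 FPKM or more, placed by that mean (log axis) and by its log2 ratio (MZ*eomesa* FPKM over wild-type FPKM). Green circles are *her*, *hes* and *hey* genes, purple squares the other Notch pathway genes, grey points all genes, and dashed lines mark a 2-fold difference. The 7 members above the upper line are *dlc*, *her13*, *notch3*, *hey1*, *her3*, *hes6* and *her8a*, and no member lies below the lower line.

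The study's lists of bound regions name a few members, and for 5 of these regions they give a predicted site for Foxh1, a partner of Smad2. They are shown as the sequences that the study gives for members, whether or not the member differed between the groups. Regions bound by both Smad2 and Eomesa are listed at *hes6* and *lfng*, and regions bound by Eomesa at *dlc*, at *her5* together with *her11*, and at *maml3*. The list of Eomesa regions was held in part, so nothing is read from the absence of other members. Capitals mark the letters AATNCAC, chosen after these sites had been seen, and the sites are printed as the study lists them, 5′ to 3′, on a strand that the lists do not name.
hes6: ttaAATCCACa
lfng: acaAATACACt
dlc: accAATTCACa
her5 and her11: gggAATACACa
maml3: gatAATACACa
Searched on both strands, AATNCAC was in 99 of the 184 sites (53.8%) given for all regions bound by both factors. The sites at *dlc*, at *her5* with *her11* and at *maml3* come from the list of Eomesa regions, and all 5 were matched as printed. This share is thus not a like background for them, and the match of the 5 sites was fixed by the choice of letters. The match is a description and does not show a used site. Of these 6 members, *dlc* and *hes6* were higher by at least 2-fold in MZ*eomesa* embryos, where 5.40% of all genes were. The other 4 stayed within 2-fold, with ratios of 1.99 for *lfng*, 1.33 for *her11*, 0.742 for *maml3* and 0.682 for *her5*. *dlc* reached the minimum mean only through its MZ*eomesa* value, and *hes6* shares its listed span with another gene. The share among all genes with a bound region was not examined, and a link between binding and level was not tested.

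Among the ligands, *dlc* stood apart. *dlc* (ENSDARG00000002336, Zv9 chromosome 15, 19425089 to 19429944) encodes deltaC, a Delta ligand known in the zebrafish for its role in somite formation. It had 0.818 FPKM in wild-type embryos against 7.24 FPKM in MZ*eomesa* embryos, 8.85-fold higher (log2 ratio 3.15), and 32 of the 14921 genes had a larger ratio. This rank is a description only, as *dlc* reached the minimum mean only through its MZ*eomesa* value and low values scatter more. *jag2*, a Jagged ligand and the only other one with a mean of at least 1 FPKM, had 5.42 and 5.06 FPKM. Together the 8 ligand genes summed to 7.70 FPKM in wild-type embryos against 14.3 FPKM in MZ*eomesa* embryos. *jag2* made up 70.4% of this sum in wild-type embryos, while *dlc* made up 50.7% in MZ*eomesa* embryos, so that the leading ligand gene differed between the groups. The other 6 ligands stayed under 1 FPKM in both groups. Of these, *dlb*, a Delta ligand expressed in the nervous system at later stages, had 0.166 and 0.606 FPKM, and *dla*, *dld*, *dll4*, *jag1a* and *jag1b* differed by less than 2-fold.

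Among the receptors *notch3* (ENSDARG00000052139, Zv9 chromosome 3, 54165564 to 54197194) differed most. It had 1.25 FPKM in wild-type embryos against 5.09 FPKM in MZ*eomesa* embryos, 4.07-fold higher (log2 ratio 2.02), and 132 genes had a larger ratio. *notch2* had 3.11 and 2.79 FPKM. The order of *notch2* and *notch3* was thus reversed between the groups. *notch2* shares its listed span on chromosome 8 with a second gene model, *NOTCH2 (2 of 2)*, which the name rule did not take and which had 2.02 and 0.976 FPKM. The sum of both models was 5.13 and 3.77 FPKM. *notch1a* had the highest value of the receptors, 94.2 and 144 FPKM, a ratio of 1.53. This value rests on a short gene model, chromosome 21 from 5088099 to 5088347 in Zv9. A longer model, *NOTCH1 (2 of 3)*, ends 4.31 kb before it and had 41.2 and 46.3 FPKM, and *NOTCH1 (3 of 3)* on the same chromosome had 31.0 and 41.2 FPKM. Their ratios were 1.12 and 1.33, so the level of *notch1a* and the size of its difference are uncertain. *notch1b* and *notchl* were at or under 0.120 FPKM in both groups.

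The fringe enzymes add a sugar to Notch and alter which ligands it answers to. *lfng* (lunatic fringe, ENSDARG00000037879, Zv9 chromosome 3, 41912280 to 41921651) was among the highest members, with 70.6 FPKM in wild-type embryos against 140 FPKM in MZ*eomesa* embryos. Its ratio of 1.99 fell just short of the 2-fold limit, and 5.50% of genes had a larger ratio. *rfng*, radical fringe, had 17.7 and 17.0 FPKM and *mfng*, manic fringe, 0.0102 and 0.0339 FPKM. The difference among fringe genes was thus that of *lfng*.

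The genes that move, cut and relay the receptor differed less between the groups. *mib*, the ubiquitin ligase mind bomb that ligands need in the sending cell, had 5.57 FPKM in wild-type embryos against 7.84 FPKM in MZ*eomesa* embryos. *numb*, which antagonises Notch, had 12.8 and 12.1 FPKM, and the related *numbl* was low, with 0.317 and 0.123 FPKM. The proteases *adam10a* and *adam10b* had 79.8 and 91.6 FPKM, and 3.98 and 2.57 FPKM. Of the presenilin complex, *psen2* had 8.88 and 8.38 FPKM and *psenen* 73.4 and 75.5 FPKM. In the nuclear complex, *rbpja* had 50.9 and 44.7 FPKM, its paralogue *rbpjb* 9.26 and 9.49 FPKM, and the co-activator *maml3* 19.1 and 14.1 FPKM. Of the 10 genes of these steps whose mean reached 1 FPKM, 0 differed by 2-fold. Of all genes 5.40% were higher and 3.80% lower, so a count of 0 among 10 genes is near that share.

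**Figure D2:**
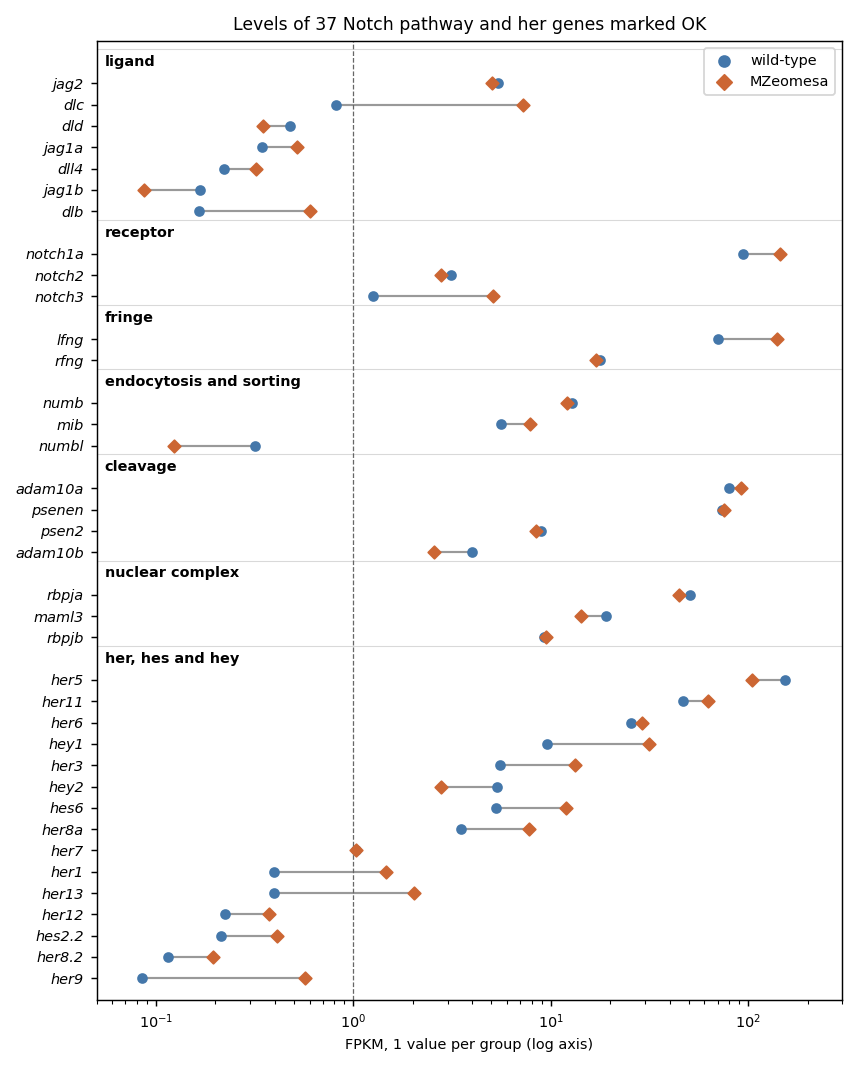
FPKM (log axis) of 37 members that the authors' program marked as having enough reads, by role in the pathway. Blue circles are wild-type and orange diamonds MZ*eomesa* embryos, 1 value per group, and the dashed line marks 1 FPKM. Bars longer than 3-fold toward higher MZ*eomesa* values are seen for *dlc* and *dlb* among ligands, *notch3* among receptors and *hey1*, *her13*, *her1* and *her9* in the *her*, *hes* and *hey* family, while the genes for cleavage and the nuclear complex have short bars.

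The *her*, *hes* and *hey* family had 25 genes, of which 9 reached 1 FPKM in wild-type embryos and 11 did so in MZ*eomesa* embryos. In wild-type embryos the family was led by *her5*, with 152.8 FPKM, which is later needed at the midbrain-hindbrain boundary. It had 104 FPKM in MZ*eomesa* embryos, 1.47-fold lower. *her11*, which lies beside *her5* and is expressed at the same boundary later on, had 46.7 and 62.3 FPKM. *her6*, a relative of mammalian *Hes1*, had 25.4 and 29.0 FPKM. These 3 most highly expressed genes of wild-type embryos differed by less than 2-fold, and in different directions.

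Of the family, *hey1* (ENSDARG00000070538, Zv9 chromosome 19, 33042964 to 33047694) was the only gene above 10 FPKM on average that was higher by 2-fold. It encodes a Hairy-related repressor known as a Notch target in blood vessels and heart. It had 9.54 FPKM in wild-type embryos against 31.5 FPKM in MZ*eomesa* embryos, 3.30-fold higher (log2 ratio 1.72), and 222 of the 14921 genes had a larger ratio. Its paralogue *hey2*, which is known for its part in forming the aorta, had 5.33 and 2.77 FPKM, 1.92-fold lower, just inside the limit. The paralogues thus differed between the groups in opposite directions, and *heyl* was near 0 in both.

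*her3*, which in the zebrafish neural plate keeps stripes free of neurons, had 5.53 FPKM in wild-type embryos against 13.3 FPKM in MZ*eomesa* embryos, 2.41-fold higher. *hes6*, whose region bound by Smad2 and Eomesa is given above and which is known for working with Her1 and Her7 in the somite clock, had 5.25 and 11.9 FPKM, 2.26-fold higher. It shares its listed span with *itm2cb*, which had 12.2 and 10.2 FPKM, so its own value is less certain. *her8a* had 3.51 and 7.76 FPKM, 2.21-fold higher. *her13* had the largest ratio of the family above the minimum. Its values were low, 0.396 and 2.02 FPKM, 5.12-fold higher (log2 ratio 2.35). A larger ratio was seen in 0.509% of genes for *her13*, and in 3.21% and 3.81% for *her3* and *hes6*. The rank of *her13* is a description only, as it reached the minimum mean only through its MZ*eomesa* value.

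Summed over the 25 genes, the family had 257 FPKM in wild-type embryos against 269 FPKM in MZ*eomesa* embryos. Without *her5* the sums were 104.1 and 165 FPKM. As *her5* was the largest member and had a smaller value in MZ*eomesa* embryos, leaving it out had to raise the ratio of the rest. *her5* made up 59.5% of the family's sum in wild-type embryos and 38.7% of it in MZ*eomesa* embryos, and *hey1* 3.72% and 11.7%. A nearly equal total therefore hid a different make-up.

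**Figure D3:**
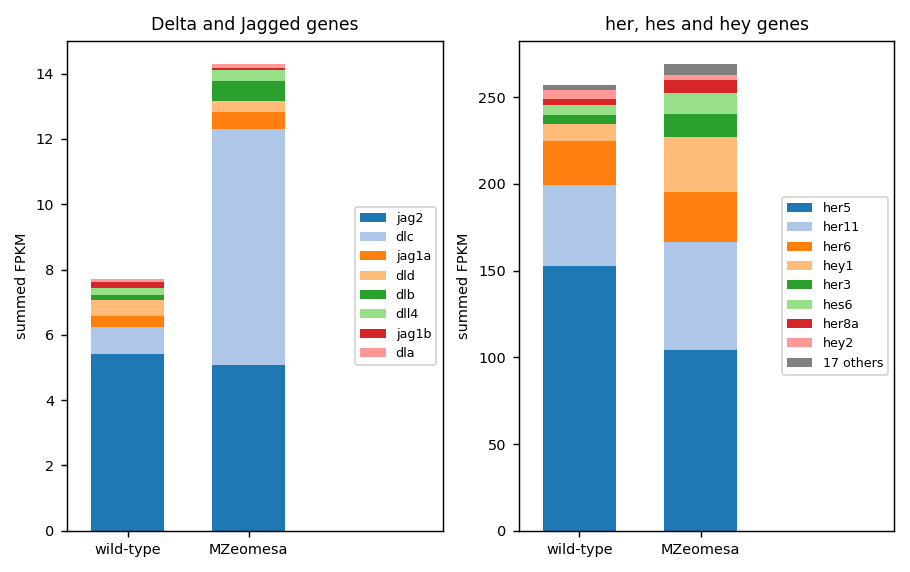
Summed FPKM of the 8 Delta and Jagged genes (left) and of the 25 *her*, *hes* and *hey* genes (right) in each group, stacked by gene from 0, with the 17 lowest family members drawn as 1 segment. The ligand sum is 7.70 and 14.3 FPKM, with *dlc* making up most of the difference, while the family sum is 257 and 269 FPKM with a smaller *her5* segment and a larger *hey1* segment.

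Several *her* genes lie side by side, and the 3 pairs of neighbours described here, chosen after their values were seen, had unlike ratios. *her15.1* and *her15.2*, 10.8 kb apart on chromosome 11, had log2 ratios of -1.43 and -1.87, at 0.151 FPKM or less in both groups and marked as having too few reads to compare. *her11* (chromosome 14, 31408113 to 31410596) and *her5* (31412618 to 31414295) are 2.02 kb apart, and their log2 ratios were 0.42 and -0.55. *her1* and *her7*, core genes of the somite clock, are 11.4 kb apart on chromosome 5. *her7* had 1.04 FPKM in wild-type embryos against 1.03 FPKM in MZ*eomesa* embryos, while *her1* had 0.397 and 1.47 FPKM, 3.70-fold higher. The mean of *her1*, 0.933 FPKM, was just under the minimum, so it was not counted. *her8.2* and *her13* are 8.36 kb apart on chromosome 15, and *her8.2* had 0.115 and 0.193 FPKM. Its log2 ratio was 0.75 where that of *her13* was 2.35.

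**Figure D4:**
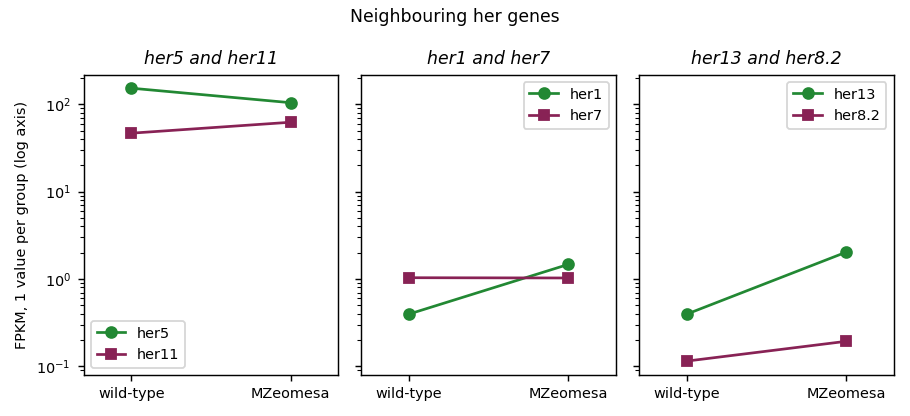
FPKM (log axis) of 3 pairs of neighbouring *her* genes in each group, 1 value per group, lines joining the values of a gene. *her5* has a smaller and *her11* a larger value in MZ*eomesa* embryos, both within 2-fold. *her1* has a larger value but a mean under 1 FPKM, *her7* is level, and *her13* has a larger ratio than *her8.2*.

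The remaining members were low. In all 26 of the 53 genes did not reach a mean of 1 FPKM, and the authors' program marked 15 of them as having too few reads to compare. The other 11 had from 0.0852 to 0.476 FPKM in wild-type embryos. Of these 11, 3 were at least 2-fold higher, *her1*, *dlb* and *her9*, and 1 was lower, *numbl*. Of all 5044 such genes in this low range, 19.1% were higher and 15.17% lower. *her9*, which is expressed in ectoderm and hindbrain later on, had 0.0852 and 0.570 FPKM, 6.69-fold higher. The 5 *her4* genes, well-known targets of Notch in the nervous system, were at or under 0.0250 FPKM in both groups. *her4.1* was listed at 0 in wild-type embryos and *hes2.1* at 0 in both groups. *her4.2* and *her4.3* share a listed span, and copies of this kind can share reads. The depth of the samples is unknown, so no lowest detectable level can be given.

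Further genes of the pathway, with partners, proneural and neuronal genes, were taken from a list of 78 names. Of these, 49 were in the table and 30 had a mean of at least 1 FPKM. Of these 30 genes, 1 was higher by 2-fold (3.33%) and 0 were lower, against 5.40% and 3.80% of all genes, and the median log2 ratio was -0.02. The gene that was higher was *elavl3*, a marker of early neurons and not a component of the pathway. It had 0.728 FPKM in wild-type embryos against 3.96 FPKM in MZ*eomesa* embryos, and reached the minimum mean only through the latter. Of the other neuronal and proneural genes, *neurog1* had 0.220 and 0.257 FPKM and *ascl1a* 0.396 and 0.315 FPKM. The feedback inhibitors *nrarpa* and *nrarpb*, which Notch induces, had 17.2 and 29.2 FPKM, and 0.834 and 1.38 FPKM. Their ratios, 1.698 and 1.66, were alike and under 2-fold. The 9 genes for processing of receptor and ligand above 1 FPKM were led by *aph1b*, a part of the presenilin complex, with 106 and 100.4 FPKM. The co-repressors that Her proteins recruit were led by *hdac1*, with 351 and 409 FPKM. The Groucho genes *gro1* and *gro2* had 25.5 and 21.2 FPKM, and 52.1 and 32.5 FPKM. *tle2*, of the same family and more highly expressed, went the other way with 117 and 135 FPKM. *spen*, a co-repressor that binds Rbpj, had 2.89 and 1.495 FPKM, a 1.93-fold lower value. The 7 co-activators were led by *snw1*, with 144 and 143 FPKM. The 7 listed partners in segmentation, *msgn1* and *ripply1* among them, were under 1 FPKM in both groups, with 0.367 and 0.656 FPKM, and 0.382 and 0.721 FPKM. The highest of them in wild-type embryos was *mespba*, with 0.399 and 0.242 FPKM. Of the genes for trafficking and turnover only *fbxw7*, a ubiquitin ligase subunit that marks Notch for breakdown, was listed, with 20.9 and 16.8 FPKM, and the highest atypical ligand was *dlk2*, with 0.0220 and 0.0110 FPKM.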

How the data were processed

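Sphere-stage embryos, 2 wild-type and 2 MZ*eomesa* samples, gave poly(A) RNA that was sequenced as single reads. The labels do not say whether the samples of a group came from separate clutches. The authors mapped the reads with TopHat2 2.0.5 to Zv9 and estimated expression with Cufflinks, which shared out reads with more than 1 mapping position. The authors' deposited values are FPKM, 1 per gene and group with both samples combined. The table also holds fold changes, p-values and q-values of the authors' own comparison, which were not used. Columns with values of single samples numbered 0. The depth per sample is unknown. Among 5491 low genes, the most frequent ratio of the groups, rounded to 3 decimals, was 0.937 (31 genes). The ratios 0.469 and 1.874, looked up as 2-fold below and above it, held 11 and 8 genes. Whether these stand out from neighbouring ratios was not examined.

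Ratios were computed without a pseudocount from values above 0. Genes whose mean reached 1 FPKM and that differed by 2-fold were counted beside the share of all genes, and 182 genes with such a mean listed at 0 in 1 group were left out. With 1 value per group no test was made. All members with such a mean are named except 1 that is not reported here, lower ones where a family needed them, and from the list of further pathway genes those past 2-fold and the highest of each role. Further names from that list (*neurog1*, *ascl1a*, *nrarpb*, *gro1*, *gro2*, *tle2*, *spen*, *msgn1* and *ripply1*) were chosen after their values were seen. The members, their roles and the gene lists were chosen with earlier results of these data known. Alternatives were other pseudocounts, minima, folds and scalings, genes with status OK only, genes without a shared span, and names in any case. Coordinates are those of the table. The counting was tested on simulated data. Versions were pandas 2.3.3, numpy 2.4.6, matplotlib 3.10.9 and Python 3.11.15.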

Additional observations from a re-analysis of the deposited data

How the results depend on the processing

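No paired analysis was possible because the deposited table holds 1 value per group, and for the same reason no sample could be left out. The count of 7 of 27 members higher by 2-fold was 4 of 20 with a minimum mean of 5 FPKM (*dlc*, *her13* and *notch3* no longer considered), against 3.29% of all genes. It was 4 of 27 with a limit of 3-fold, against 1.83% of all genes, and 12 of 51 with no minimum, against 12.3%. It lay between 6 and 9 under the other alternatives, with *her8a* lost on log2(FPKM + 1), *hes6* lost without shared spans, *lfng* gained on centring and *her1* gained at a minimum of 0.5 FPKM. Under these alternatives from 2.98% of all genes, on log2(FPKM + 1), to 12.2%, at 1.5-fold, were higher. The count of 0 lower members was 1 of 27 on rescaling to the same FPKM total (*hey2*), against 4.42% of all genes. It was 1 of 31 with names in any case (*NOTCH2 (2 of 2)*), against 3.80%. At 1.5-fold it was 2 of 27, against 10.4% of all genes, and with no minimum 7 of 51, against 8.92%. The members' median log2 ratio was 0.19 with no minimum and -0.03 on rescaling, so its direction depends on the scaling. Rescaling moved the median of all genes to -0.08, and higher genes made up 51.6% of genes past 2-fold where they had made up 58.7%. In wild-type embryos 40 members had at least 0.1 FPKM and 12 at least 10 FPKM. Of the 30 further pathway genes 6 differed by 1.5-fold, where 12.2% of all genes were higher and 10.4% lower. A pseudocount cannot turn the direction of a ratio, and centring and rescaling shift all ratios alike and by little. These alternatives therefore do not test the direction of members past 2-fold. On log2(FPKM + 1) the log2 ratio was 2.18 for *dlc*, 1.44 for *notch3* and 1.12 for *her13*, smaller than without a pseudocount, and 1.62 for *hey1*. Without values per sample or depth, no difference can be set against the spread between replicates.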
